A study of Mus musculus with 4 samples.

Results

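Occupancy of the DNA-binding protein CTCF was examined at the loci of 6 neuronal immediate early genes: Fos, Fosb, Junb, Egr1, Npas4 and Nr4a1. Chromatin immunoprecipitation with sequencing (ChIP-seq) had been done on hippocampus of C57/Bl mice. The labels name 2 libraries precipitated with an antibody against CTCF and 2 input libraries of chromatin without precipitation, and the submitters combined them in 1 list of 15109 peaks on the mouse genome build mm9. The labels used here state neither the age or sex of the animals nor any stimulation or training. A peak was taken as a member when any of its bases lay within 100 kb of the given position of 1 of the genes, which selected 42 of the 15109 peaks. Because the libraries were combined, no value has a replicate error and read depth is unknown. The hippocampus holds many cell types, and strong binding in few cells cannot be told apart here from weak binding in many.

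The gene positions were approximate ones, and no mm9 gene annotation was used to refine them. They were chr12:86815000-86818000 for Fos, chr7:19888000-19896000 for Fosb, chr8:87498000-87500500 for Junb, chr18:35020000-35025000 for Egr1, chr19:4984000-4990000 for Npas4 and chr15:101084000-101106000 for Nr4a1. Distances below are from the nearer end of these spans, and "lower" and "higher" refer to the chromosome coordinate.

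Immediate early genes are switched on within minutes of synaptic activity by transcription factors that are already present in the neuron, among them CREB, which binds the cyclic AMP response element (CRE). The 6 genes encode transcription factors themselves. Fos or FosB pairs with JunB through leucine zippers to form AP-1. Egr1, also called Zif268, is a zinc finger protein, Npas4 is a neuronal basic helix-loop-helix PAS protein induced by calcium entry, and Nr4a1, also called Nur77, is an orphan nuclear receptor. CTCF is a zinc finger protein that, with cohesin, anchors chromatin loops and can insulate genes from neighbouring enhancers.

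Fos was the gene whose given start was covered by a CTCF peak, so its promoter is shown first. Also shown are Nr4a1, the other searched member promoter with a CTCF core match, and Npas4, with no peak within 10 kb. The sequences are from RefSeq on build GRCm38.p6, which is not the build of the peaks. They run 5′ to 3′ over 300 bases, most of them before the annotated start, at chr12:85473640-85473939 on the plus strand for Fos, chr15:101266596-101266895 on the plus strand for Nr4a1 and chr19:4989922-4990221 on the minus strand for Npas4. Capitals mark matches, on either strand, to a 12-base CTCF core (CC, any 3 bases, AG, any 2 bases, GGC) or to the 5-base part of the CRE (CGTCA, or TGACG on the other strand).
Fos: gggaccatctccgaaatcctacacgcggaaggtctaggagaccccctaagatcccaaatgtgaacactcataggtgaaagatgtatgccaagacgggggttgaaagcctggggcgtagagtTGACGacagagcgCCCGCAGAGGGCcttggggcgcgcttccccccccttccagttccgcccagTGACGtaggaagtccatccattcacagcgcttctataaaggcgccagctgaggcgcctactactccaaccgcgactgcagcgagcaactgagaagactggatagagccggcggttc
Nr4a1: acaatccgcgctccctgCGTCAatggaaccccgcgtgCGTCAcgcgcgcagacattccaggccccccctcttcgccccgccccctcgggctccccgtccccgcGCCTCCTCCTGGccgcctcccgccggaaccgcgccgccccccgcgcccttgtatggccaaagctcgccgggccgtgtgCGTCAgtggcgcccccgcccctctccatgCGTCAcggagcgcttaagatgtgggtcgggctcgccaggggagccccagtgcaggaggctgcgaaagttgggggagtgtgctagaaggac
Npas4: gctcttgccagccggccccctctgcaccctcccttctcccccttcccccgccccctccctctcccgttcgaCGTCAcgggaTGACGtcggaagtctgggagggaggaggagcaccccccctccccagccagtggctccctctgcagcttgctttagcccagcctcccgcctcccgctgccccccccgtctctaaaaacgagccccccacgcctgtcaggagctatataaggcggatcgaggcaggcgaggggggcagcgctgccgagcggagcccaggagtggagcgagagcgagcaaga

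The Fos promoter held 1 match to the CTCF core, CCCGCAGAGGGC at bases 135 to 146 of the window, and the Nr4a1 promoter held 1 on the other strand, at bases 104 to 115. No match was found in the Fosb, Junb and Npas4 windows. This core is loose: 8.61% of the 32851 RefSeq promoter windows of the same length held a match. The Egr1 promoter was not searched, so these matches cover 5 of the 6 genes. The 5-base CRE part was found in 5 of the 5 member promoters searched, against 20.8% of all promoters. This word is short, and the promoters compared were not matched for base composition. There were 2 matches in Fos, 1 each in Fosb and Junb, 2 in Npas4 and 4 in Nr4a1. The full palindrome TGACGTCA, which contains the 5-base part on both strands, was in 0 of the 5 and in 1.79% of all promoters. A match describes letters in the window and is not a measured binding site. Whether the Fos match lies under the Fos peak was not determined, since no mm9 sequence was used.

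CTCF peaks lay within 10 kb of 4 of the 6 genes, with 3 at Nr4a1, 2 at Fosb and 1 each at Fos and Junb, and none at Egr1 and Npas4. As background, windows of the same length were laid end to end over all chromosomes from the first to the last peak. At least 1 peak was held by 10.2% of windows of the Fos length, 11.8% for Fosb, 10.02% for Junb, 10.8% for Egr1, 11.2% for Npas4 and 15.8% for Nr4a1. These windows include gene-poor stretches, so they are not a background of other genes. A peak overlapped the given span of 2 genes, Fos and Fosb. The share of windows of gene length that hold a peak was not computed, so this count has no background. Moved 5 kb either way, the Fos span no longer met its peak, and the Fosb span did not when moved 5 kb higher. The counts of 0 depended on the position used, since moving the span by 5 kb brought 1 peak within reach of Egr1 (lower) and 1 within reach of Npas4 (higher). The near peaks of 3 other genes depended on it too. With the span 5 kb higher, Fosb lost its peak of score 436, and the Junb peak of score 388 gave way to one of score 68. With the span 5 kb lower, the Nr4a1 peak of score 348 gave way to one of score 311.

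At Fos, the peak over the gene start lay at chr12:86814262-86815547. It reached from 738 bp below the given start to 548 bp inside the gene, which is on the plus strand, so the start is the 5′ end. It was 1286 bp wide, and only 2.30% of all peaks were as wide or wider. Its score was 302, rank 1751 of 15109, with 11.6% of peaks scoring higher. The score is the whole number given to each peak by the submitters' peak caller. Its scaling is not stated, so it is used only to rank peaks inside this list, where it ran from 13 to 3888 with a median of 93.

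The Fos locus held a single further peak within 100 kb, at chr12:86795766-86796665, 18.3 kb to the lower side and thus upstream of the gene. It was stronger than the peak over the start, scoring 657 (rank 576 of 15109) over 900 bp. On the higher side no peak was listed until chr12:86951757-86952172, 134 kb away, with a score of 90. Fos thus had the fewest peaks of the 6 loci at this distance, although within 200 kb it had 8 against 4 at Egr1, and within 50 kb Fos, Egr1 and Npas4 had 2 each. Both Fos peaks were in the top 25% of the list by score, a value of 163 or more. Of windows of this length, 23.3% held at least 2 peaks.

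Fosb, the paralog of Fos, showed another arrangement. Its peak inside the gene, at chr7:19889112-19889491, was narrow (380 bp) and weak, with a score of 75 and rank 9864. It began 1112 bp above the lower end of the span, and Fosb is on the minus strand, so the peak lay towards the 3′ end. The stronger near peak was 6.29 kb beyond that 3′ end at chr7:19881068-19881711, scoring 436 (rank 1067) over 644 bp.

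The 4 flanking peaks lay on the higher, upstream side of Fosb. The nearest, 31.7 kb away at chr7:19927740-19928846, scored 674 (rank 550) and was 1107 bp wide. A weaker peak of score 138 followed it 1526 bp further, at chr7:19930373-19930812. At 94.6 kb, chr7:19990644-19991262 scored 957 (rank 290), the highest score among the 42 peaks, over 619 bp. The remaining flanking peak scored 74. Scores at Fosb thus fell into 3 high values of 436 to 957 and 3 lower ones of 74 to 138. At least 6 peaks were held by 6.53% of windows of this length.

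Junb, the AP-1 partner, had 11 peaks, and 1.37% of windows of this length held as many. A single peak was within 10 kb, at chr8:87489567-87490179, 7.82 kb to the lower side, which is downstream because Junb is on the minus strand. It scored 388 (rank 1276) and was 613 bp wide. The nearest peak on the upstream side, 13.8 kb away at chr8:87514290-87514645, was weak, with a score of 68 (rank 10668). It was followed by chr8:87521783-87522413 at 21.3 kb, which scored 640 (rank 608). The strongest peak of the locus, chr8:87537115-87537850 at 36.6 kb, scored 778 (rank 416).

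On the downstream side of Junb, chr8:87452473-87453240 at 44.8 kb scored 298 and chr8:87417269-87417729 at 80.3 kb scored 338. The other 5 flanking peaks were weaker, with scores of 46 to 146. Strong and weak peaks were interspersed along the locus: 5 of the 11 were in the top 25% of the list, and 5 scored below the list median of 93. On the upstream side the peak at 42.8 kb was the last within 100 kb.

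Egr1 had no peak within 10 kb and 3 within 100 kb, all on the lower side. The nearest, 13.1 kb away at chr18:35005510-35006924, was 1415 bp wide, the widest of the 42 peaks, and only 1.52% of the list was as wide or wider. Its score was nevertheless only 136 (rank 4835). Among the 216 peaks of like width, within 10% of its own, the median score was 501 and 11.1% scored lower. The next peak, at 28.4 kb, scored 108 at chr18:34991029-34991586, and the strongest, chr18:34936263-34936910 at 83.1 kb, scored 355 (rank 1428). On the higher side the nearest peak was 379 kb away, at chr18:35404218-35404565, with a score of 55. At least 3 peaks were held by 16.0% of windows of this length.

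Npas4 also had no peak within 10 kb, yet 9 peaks lay within 100 kb, a count reached by 2.57% of windows of this length. The nearest, chr19:5001657-5002338, was 11.7 kb to the higher side, which is upstream on the minus strand, with a score of 327 (rank 1591). The RefSeq model of Npas4 on GRCm38.p6 is 19087 bp long and reaches upstream of the promoter shown, against 6001 bp for the span used here, so this peak is outside the span but may lie inside the longer model. On the downstream side, chr19:4961966-4962834 at 21.2 kb was the strongest of the locus, scoring 650 (rank 590) over 869 bp. The given span of Npas4 was therefore bracketed by top 25% peaks, which need not hold for the longer model. Beyond them, 6 of the 9 peaks lay together from 60.1 to 98.4 kb upstream, with scores of 46 to 373. The strongest of these, chr19:5087760-5088266, scored 373 (rank 1340) and was only 135 bp from a peak of score 292. The remaining peak, 55.3 kb downstream, scored 231. Of the 9 peaks, 6 were in the top 25%.

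Nr4a1 had 3 peaks within 10 kb, all beyond the higher end of the span, which is the 3′ end because the gene is on the plus strand. They lay 1.82 kb away at chr15:101107824-101108455 (score 136, rank 4835), 3.24 kb away at chr15:101109237-101109587 (score 87, rank 8471) and 8.06 kb away at chr15:101114064-101114742 (score 348, rank 1467). The weakest was also the narrowest of the 42 peaks, at 351 bp. Scores thus were highest at the peak farthest from the gene of the 3. No peak overlapped the span of the gene, which is the longest of the 6. The RefSeq promoter window shown for Nr4a1 belongs to a start inside the RefSeq model of the gene, whereas distances here are from the ends of the given span.

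On the upstream side of Nr4a1, the nearest peak was 13.9 kb away at chr15:101069446-101070098, with a score of 311 (rank 1696). A group of 3 peaks from 40.0 to 42.2 kb followed, led by chr15:101040817-101041847 which scored 192 and was 1031 bp wide. The other 2 of this group, with scores of 99 and 82, were only 91 bp apart. The peaks at 55.0 and 68.1 kb scored 163 and 181. Beyond the 3′ side, the peaks at 51.6 and 76.1 kb were weak, with scores of 63 and 62. Of windows of this length, 1.81% held at least the 11 peaks of Nr4a1.

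**Figure D1:**
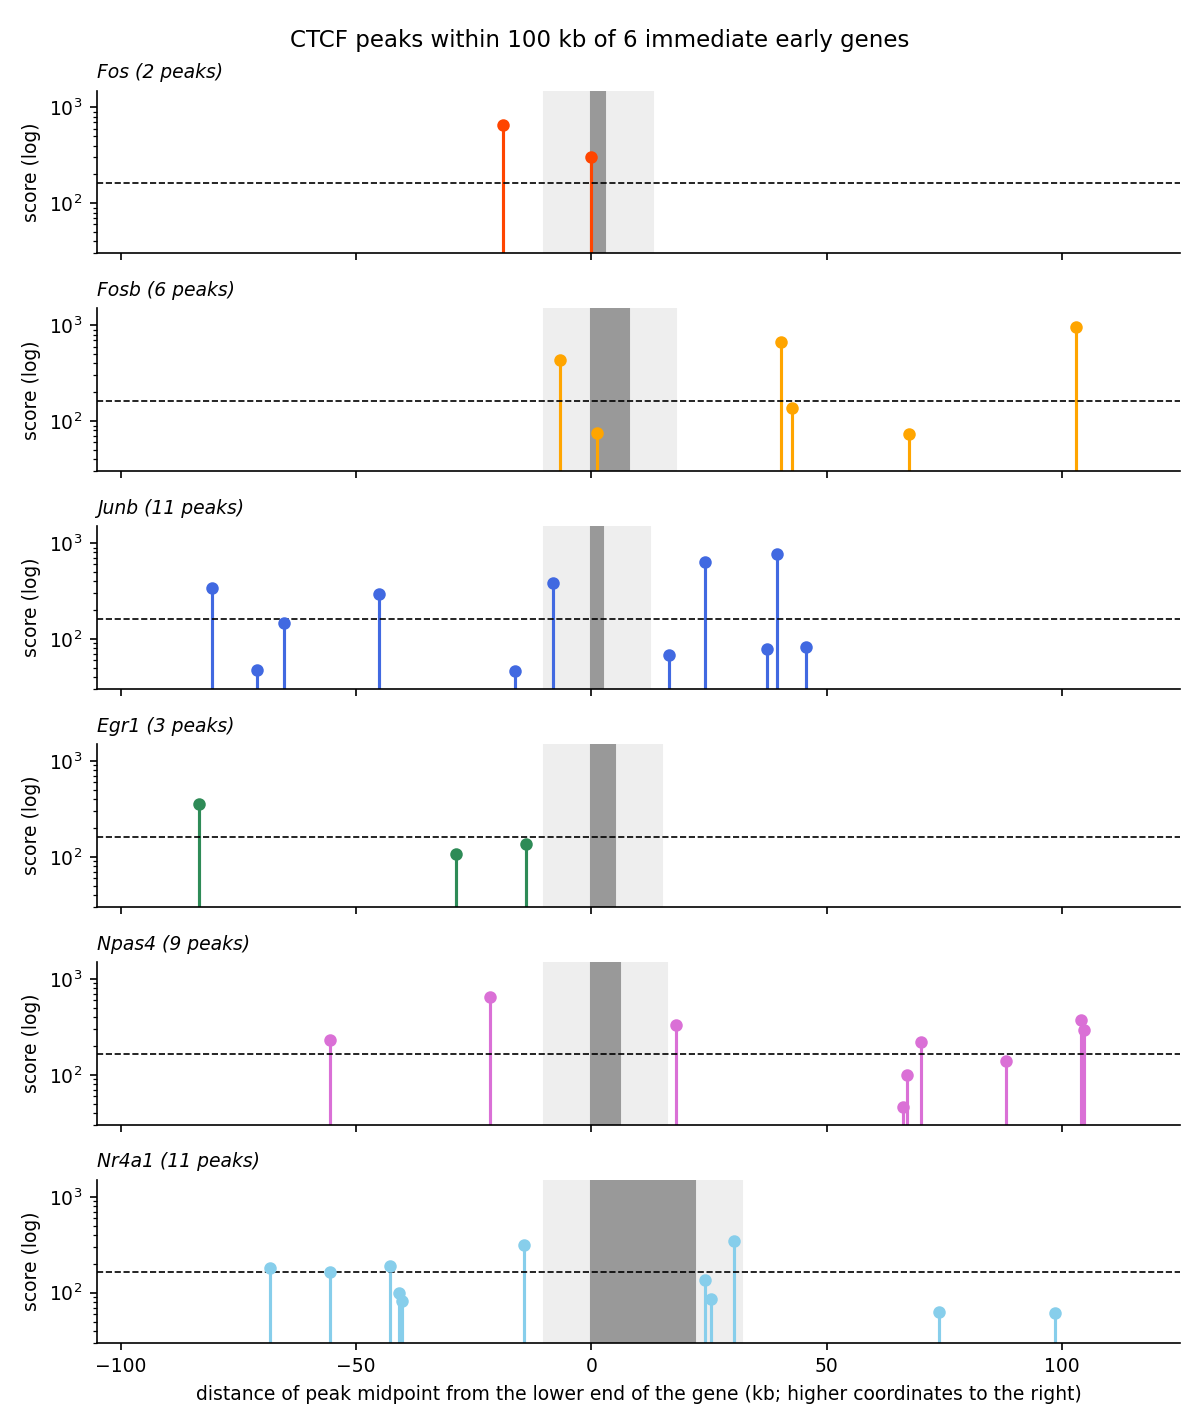
Each panel plots the CTCF peaks within 100 kb of a gene by the distance of the peak midpoint from the lower end of the gene (kb) and by score (log axis), with the gene span in dark grey, 10 kb on either side in light grey and a dashed line at a score of 163, the start of the top 25% of the list. Fos has a peak at its lower end, and Fos and Egr1 have no peaks to the right of the gene.

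Across the 6 loci, counts within 100 kb ran from 2 at Fos and 3 at Egr1 over 6 at Fosb and 9 at Npas4 to 11 at Junb and Nr4a1. The exact 95% Poisson intervals were 0.242 to 7.22 for Fos, 0.619 to 8.77 for Egr1, 2.20 to 13.1 for Fosb, 4.12 to 17.1 for Npas4 and 5.49 to 19.7 for Junb and for Nr4a1. They cover counting error only and treat the peaks as independent. All 6 overlap, which does not show that the counts are alike. Differences between the loci were not tested, so this order is a description. In windows of these lengths the median count was 0. All 6 counts lay above that median. For Junb, Nr4a1, Npas4 and Fosb, 1.37% to 6.53% of windows held as many peaks. For Egr1 and Fos the shares were larger, at 16.0% and 23.3%.

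**Figure D2:**
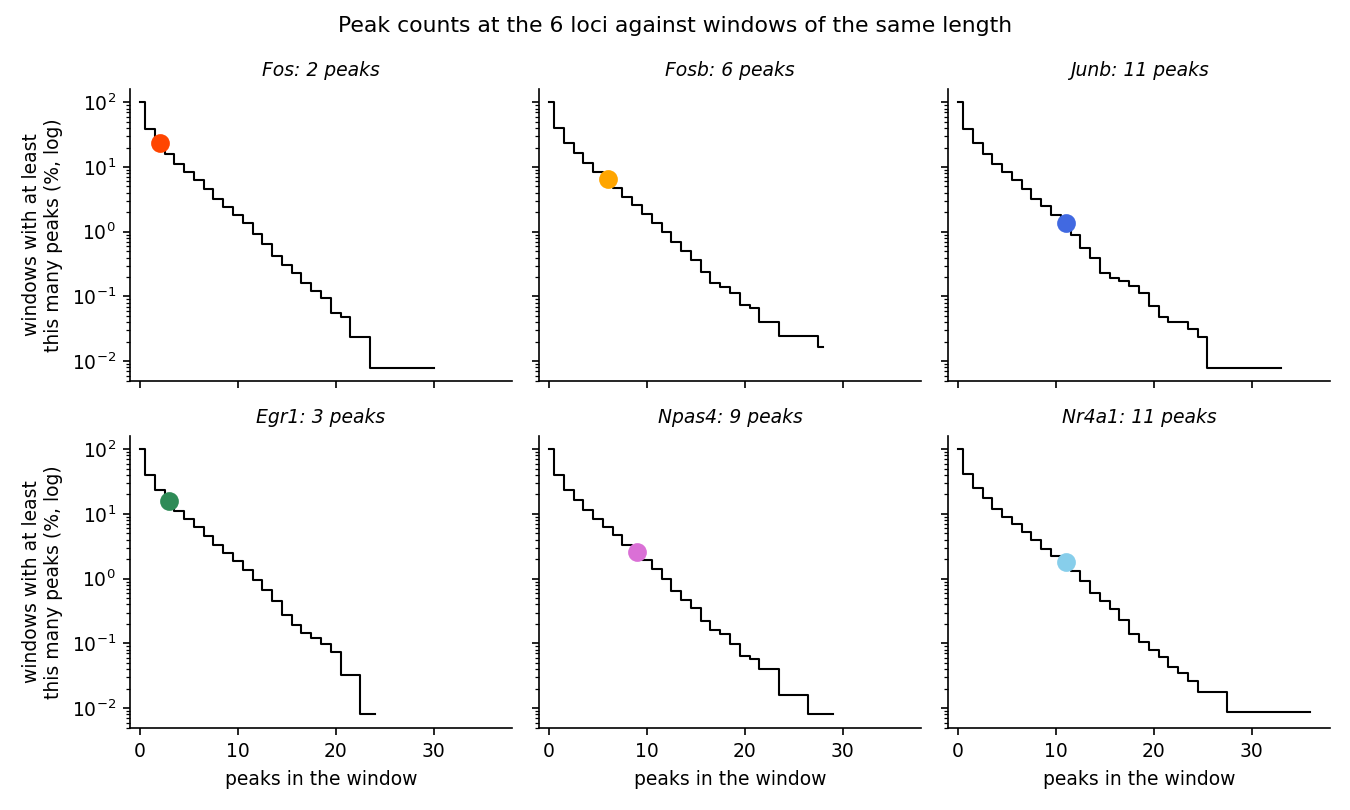
Each panel plots the share of genome windows of the locus length (percent, log axis) that hold at least the number of CTCF peaks on the horizontal axis (black steps), with the count at the locus as a coloured point. The points of Junb and Nr4a1 lie at 1.37% and 1.81% of windows, those of Fos and Egr1 at 23.3% and 16.0%.

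The number of neighbouring genes also differed. Neighbours were counted in the RefSeq table for GRCm38.p6, within 100 kb of the RefSeq model of each gene. Junb had 17 other protein-coding genes there, Npas4 had 14, Fosb had 12, Egr1 and Nr4a1 had 5 each, and Fos had 1. The genes next to each member were Tmed10 and Jdp2 for Fos, Rtn2 and Ercc1 for Fosb, Prdx2 and Hook2 for Junb, Reep2 and Etf1 for Egr1, Mrpl11 and Slc29a2 for Npas4, and Grasp and Atg101 for Nr4a1. The peak counts set beside these are for 100 kb around the given spans, so the windows are not the same. They were 11 at Junb, 9 at Npas4, 6 at Fosb, 3 at Egr1, 11 at Nr4a1 and 2 at Fos. The locus with the fewest neighbours thus had the fewest peaks, and those of Egr1 and Nr4a1, with 5 neighbours each, differed in their counts. The part of gene density in these counts was not tested, and peaks were not assigned to the neighbours.

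Peak density in these windows was 4.20 peaks per 100 kb over the genes and 10 kb on either side (7 peaks, 95% Poisson interval 1.69 to 8.66), 3.75 from 10 to 50 kb (18 peaks, 2.22 to 5.93) and 2.83 from 50 to 100 kb (17 peaks, 1.65 to 4.54). The 3 intervals overlap and are wide, and whether density changes with distance was not tested. Over all chromosome spans the density was 0.594 per 100 kb. These spans include gene-poor stretches, so this is not a background of other genes. The 42 peaks were spread about evenly over both sides, with 19 lower, 21 higher and 2 overlapping a gene. At Fos and Egr1, however, no peak lay on the higher side.

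The peaks at these loci had a higher median score than the list as a whole, a difference that is described and not tested. Their median was 172 (95% order-statistic interval 108 to 302, which treats the peaks as independent), against 93 over all 15109 peaks. Of the 42, 30 (71.4%) scored 93 or more, as did 50.3% of all peaks. The top 25%, which held 25.4% of all peaks because of ties at its limit, included 22 of them (52.4%). The top 10%, with scores of 338 or more, included 12 (28.6%), against 10.2% of all peaks. No locus lacked such a peak: Junb had 4, Fosb 3, Npas4 2, and Fos, Egr1 and Nr4a1 1 each. Of windows of the locus length, at least 1 top 10% peak was held by 9.82% for Fos, 9.91% for Fosb, 9.68% for Junb, 9.78% for Egr1, 9.77% for Npas4 and 10.4% for Nr4a1. Most windows hold no peak at all, and among windows with at least as many peaks as the locus the shares were 35.3%, 56.5%, 69.8%, 41.2%, 62.8% and 70.5%, in the same order. The highest-scoring of the 42, the Fosb peak at rank 290, had 1.91% of the list above it.

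By locus, the median score was 479.5 at Fos, where it rests on 2 peaks, 287 at Fosb, 231 at Npas4, 146 at Junb and 136 at Egr1 and at Nr4a1. The 7 peaks within 10 kb had a median of 302 and ran from 75 to 436, and the 35 flanking peaks had a median of 163 and ran from 46 to 957. The near range lies inside the flanking one. Nr4a1 and Junb thus had equal counts and similar medians but unlike tops, with highest scores of 348 and 778.

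**Figure D3:**
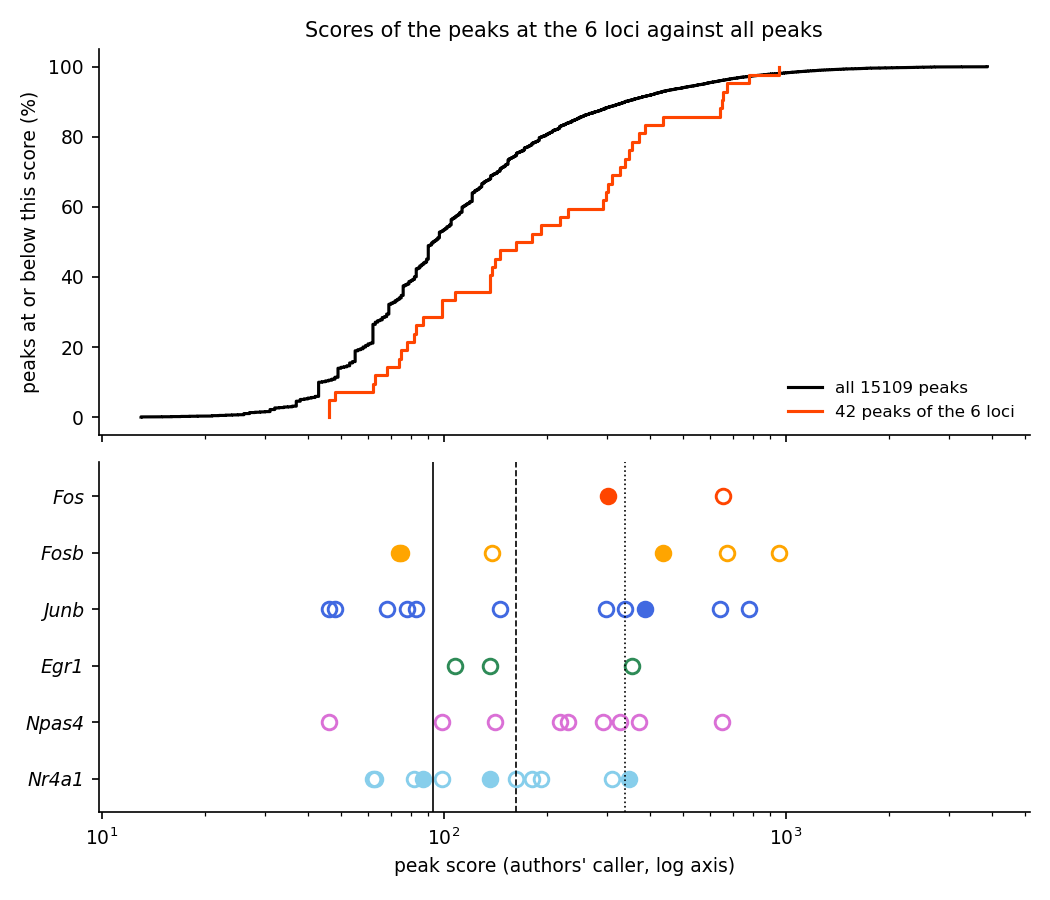
The upper panel plots the cumulative share of peaks (percent) against score (log axis) for all 15109 peaks and for the 42 peaks of the 6 loci, and the lower panel plots each of the 42 by gene, filled within 10 kb and open farther away. Vertical lines mark the starts of the top 50% (solid, 93), 25% (dashed, 163) and 10% (dotted, 338) of the list, and every gene has at least 1 point in the top 10%.

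Strong peaks stood closely on both sides of the given spans of 4 of the genes. The interval between the nearest top 25% peaks on either side, gene included, was 31.6 kb at Junb (scores 388 and 640), 38.8 kb at Npas4 (650 and 327), 44.0 kb at Nr4a1 (311 and 348) and 46.0 kb at Fosb (436 and 674). Adjacent top 25% peaks in the list were a median of 148 kb apart, and 99.2% to 99.6% of all bases between such peaks lay in intervals at least as long as these 4. The intervals of the list include gene-poor stretches. At Npas4 the upstream peak, of score 327, may lie inside the longer RefSeq model and so not beyond the gene. These 4 loci also held more peaks than Fos and Egr1, so their short intervals and their counts are not separate observations. Egr1 differed, with an interval of 487 kb, and 85.3% of such bases lay in intervals at least as long. At Fos the nearest top 25% peaks on either side were 183 kb apart. The peak over the Fos start, also in the top 25%, lay between them, so this stretch is not an interval between adjacent peaks. The gap from the peak on the lower side to the peak over the start was 17596 bp. At Fos the bounding scores were 657 and 213, and at Egr1 355 and 218.

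The nearest top 25% peak was found on differing sides of the genes. It covered the given 5′ end at Fos. It lay beyond the 3′ end at Fosb, Junb and Nr4a1, at 6.29, 7.82 and 8.06 kb. At Npas4 it was 11.7 kb upstream of the given span and may lie inside the longer RefSeq model. At Egr1 it was 83.1 kb to the lower side. This grouping was made after the values were seen, and it depended on the positions given. With the span 5 kb lower, the nearest top 25% peak was instead upstream at Nr4a1 (score 311) and downstream at Npas4 (score 650).

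Peaks at these loci were also wider than usual, with a median of 603.5 bp against 473 bp over the list. Of the 42, 4 (9.52%) exceeded 1 kb, against 5.75% of all peaks: the Fos peak over the start, the Fosb peak at 31.7 kb, the Egr1 peak at 13.1 kb and the Nr4a1 peak at 42.2 kb. Width and score go together in this list (Spearman's rho of 0.59 across all peaks and 0.50 across the 42, which share libraries and caller), so the wider and the higher-scoring members are not separate observations. Beside peaks of like width, the Fos peak was ordinary, with a score of 302 against a median of 346.5. The Fosb peak was higher, with 674 against 317, and the Nr4a1 peak was lower, with 192 against 304. The Egr1 peak, already described, was farthest below its like.

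**Figure D4:**
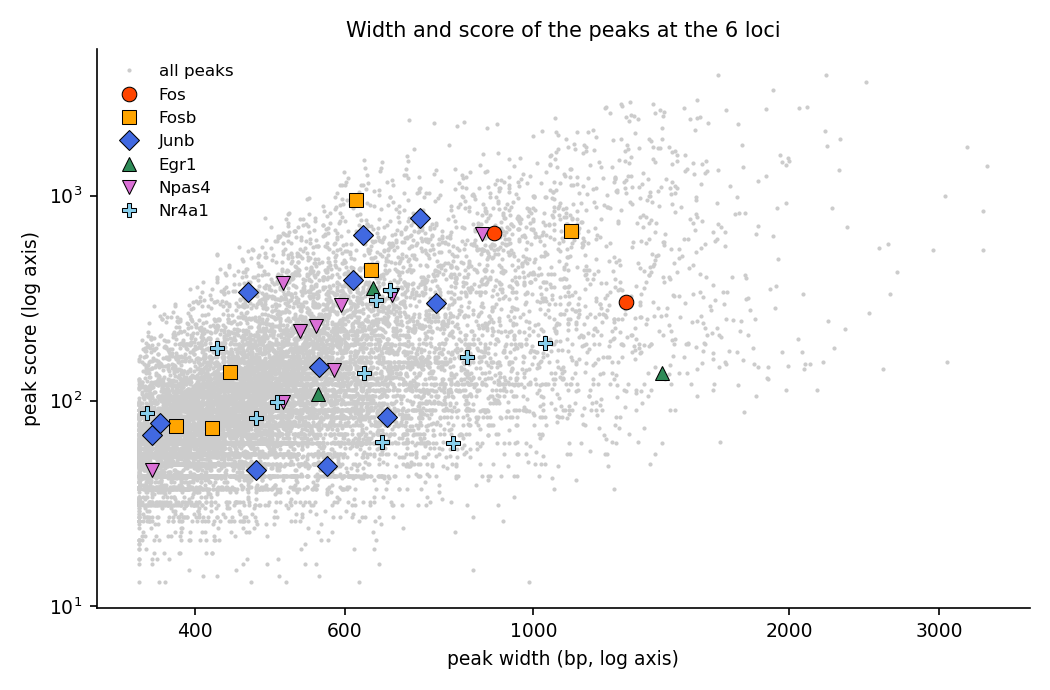
Each point is a peak by width (bp, log axis) and score (log axis), with all peaks in grey and the 42 peaks of the 6 loci in colour by gene. The Egr1 peak of 1415 bp and score 136 lies low among peaks of its width, and the Fosb peak of 619 bp and score 957 lies near the upper edge.

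Some of the 42 were close to each other. Adjacent member peaks were under 1 kb apart in 4 cases, with gaps of 425 and 135 bp at Npas4 and 91 and 781 bp at Nr4a1. Joining these gave 38 regions, 7 at Npas4 and 9 at Nr4a1, and left the other 4 loci as they were. Over the whole list the same joining took 15109 peaks to 14187 regions, so close pairs are not particular to these loci. Whether such pairs are separate sites or split summits of a single site was not tested.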

How the data were processed

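CTCF ChIP-seq of hippocampus had been done with 2 ChIP and 2 input libraries. Per the submitters' processing notes, cutadapt, MACS2 2.0.10.20131216 and build mm9 were used. The name in the file header shows that ChIP 1 and 2 were called together against input 1 and 2. Nothing used here names the aligner, the duplicate handling or the calling threshold (not given in the sources used here). The peak score is as deposited by the authors. A strict threshold would remove weak peaks, so a stretch with no listed peak may still be bound.

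Starts were converted to positions counted from 1. Peaks with any base within 10 kb (near) or 100 kb of the given gene position were counted, and ranks count all peaks, with ties sharing the best rank. Windows of each locus length were laid end to end over each chromosome's span of peaks. Intervals are exact Poisson 95% intervals for counts. No test was made, since 1 list gives no replicates. The named peaks are those within 10 kb, the nearest on each side, the 3 highest scores per locus and those in the top 10%. A further list of activity-regulated genes was not placed, since no mm9 gene positions were used. The members and lists were chosen with earlier results of these data known. RefSeq promoters (GRCm38.p6) were matched by symbol for 5 of 6 genes, and the Egr1 promoter, on chromosome 18, was left out. Python 3.11.15, NumPy 2.4.6, SciPy 1.17.1 and matplotlib 3.10.9 were used, and the counting was checked against direct counts on simulated lists.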

Additional observations from a re-analysis of the deposited data

How the results depend on the processing

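The 7 peaks within 10 kb of the 6 genes became 4 within 5 kb, 13 within 20 kb and 4 among the top 25% of scores. With the top 50% of scores, joining under 1 kb, midpoints or positions moved by 5 kb there were 5 to 8. The 42 peaks within 100 kb became 25 within 50 kb, 76 within 200 kb and 22 among the top 25% of scores, and 30 to 43 under the other alternatives. These changes follow from the distances and filters themselves. At Npas4 only 2 of 9 peaks were left within 50 kb, whereas Junb kept 8 of 11. The median score of 172 ran from 146 (without the Npas4 locus) to 231 (without the Nr4a1 locus), above the 93 of all peaks under all 9 alternatives; after joining it was 186.5 against 97 for all 14187 regions. The share of windows holding as many peaks changed from 23.3% to 19.1% on its own chromosome for Fos, from 6.53% to 8.65% for Fosb, from 1.37% to 3.04% for Junb, from 16.0% to 10.7% for Egr1, from 2.57% to 5% for Npas4 and from 1.81% to 2.44% for Nr4a1. Among windows with at least 1 peak it was 59.5%, 16.5%, 3.50%, 40.8%, 6.52% and 4.43%, in the same order. No paired analysis was possible because peaks were called on the joined libraries, and for the same reason no replicate could be left out. The depth behind each score is not known, which limits what weak peaks can show.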
